A study of Mus musculus with 9 samples.

Results

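This report describes the genes of the proteasome in sorted hair cells (HCs), which sense sound and balance, of newborn mice that differ in the Dmdo allele of Mir96. The members were the 51 genes of 43808 in the deposited tables whose symbols begin with Psma to Psmg and a number, pseudogenes excluded. Of these, 47 reached 20 reads in 2 or more libraries of some genotype and were compared. The Dmdo allele changes a base in the seed of miR-96, the part of this microRNA that pairs with transcripts. Cochlear and vestibular HCs were collected from P1 mice as cells positive for both Atoh1/nGFP, a reporter driven with the timing of the HC gene Atoh1, and the epithelial surface protein CD326. All 9 mice carried Atoh1/nGFP+. Wild-type mice (Mir96 +/+, numbered 44, 55 and 59), heterozygous mice (1 Dmdo allele, numbered 45, 48 and 51) and homozygous mutant mice (2 Dmdo alleles, numbered 43, 46 and 47) gave 1 bulk RNA-seq library each. Breeders came from a cross of C3HeB/FeJ Dmdo mice with C57BL6 reporter mice, so that regions near Mir96 can differ between genotypes by strain as well as by the Dmdo base. Cochlear and vestibular cells were not separated. In such bulk libraries, fewer cells of a type and less RNA per cell cannot be told apart.

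The proteasome is the protease complex that degrades proteins tagged with ubiquitin. Its barrel, the 20S core, stacks outer rings of alpha subunits, which gate the entrance, on inner rings of beta subunits, which hold the catalytic sites. The 19S regulatory particle caps the barrel, binds the ubiquitin tag and unfolds the substrate with a ring of ATPases, while dedicated chaperones assemble both parts. HCs do not divide and are not replaced in the mammalian cochlea, and they keep their proteins in order for life through this route among others.

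The base that differs between the genotypes lies in the mature miR-96-5p. Its sequence in RefSeq (GRCm38.p6, chr6:30169506-30169528, minus strand) is shown because every comparison below rests on it, with the seed, bases 2 to 8, in capitals.
miR-96-5p: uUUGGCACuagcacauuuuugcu
The Dmdo change is A7U, counted from the 5′ end of the mature microRNA. A transcript pairs with the wild-type seed through the 7 bases GTGCCAA and with the Dmdo seed through GAGCCAA. In the GENCODE vM21 annotation of GRCm38, 3′ UTRs of 0 of the 47 proteasome genes held the first, against 10.4% of 13029 genes tested that had an annotated 3′ UTR, and 4 genes (8.51%) held the second, against 11.1%. The UTRs of the proteasome genes were short, with a median of 294 bases against 1210 over all these genes, so the 2 shares were not taken over equal lengths. No proteasome gene lies on chromosome 6 with Mir96.

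The 9 libraries held between 18175317 and 34873964 counted reads. Levels are given as CPM, counts scaled to library size after TMM normalization. Differences are log2 fold changes from the quasi-likelihood test of edgeR on all 9 libraries, given with their standard error (SE). Adjusted p-values are from this test, by Benjamini-Hochberg over the 15184 genes tested, unless another tool is named. Called genes are those with an adjusted p under 10% and a fold change above 1.5 in either direction.

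No proteasome gene was called between homozygous mutant and wild-type HCs by edgeR, against 1.15% of all genes tested. Most members nevertheless had higher estimates in the homozygous mutants. The log2 fold change was above 0 for 39 of the 47 genes (83.0%), against 49.1% of all genes tested, with a median of 0.40 over the members against -0.02 over all genes. At an unadjusted p under 0.05, 5 members were higher and 0 lower, against 4.92% of all genes that were higher at that level. The 5 were Psmb1, Psmd7, Psmg1, Psma6 and Psmb4. In 9 members every homozygous mutant library lay above every wild-type library, against 7.61% of all genes, and in 0 members every homozygous mutant library lay below, against 8.9%. DESeq2 called 1 member higher, Psmb1 (adjusted p = 0.0532 from DESeq2, against 6.36% of all genes called by that tool), and limma-voom with quality weights called 0, against 2.11% of all genes. At an unadjusted p under 0.05, DESeq2 had 6 members higher (6.92% of all genes) and limma-voom 9 (5% of all genes).

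**Figure D1:**
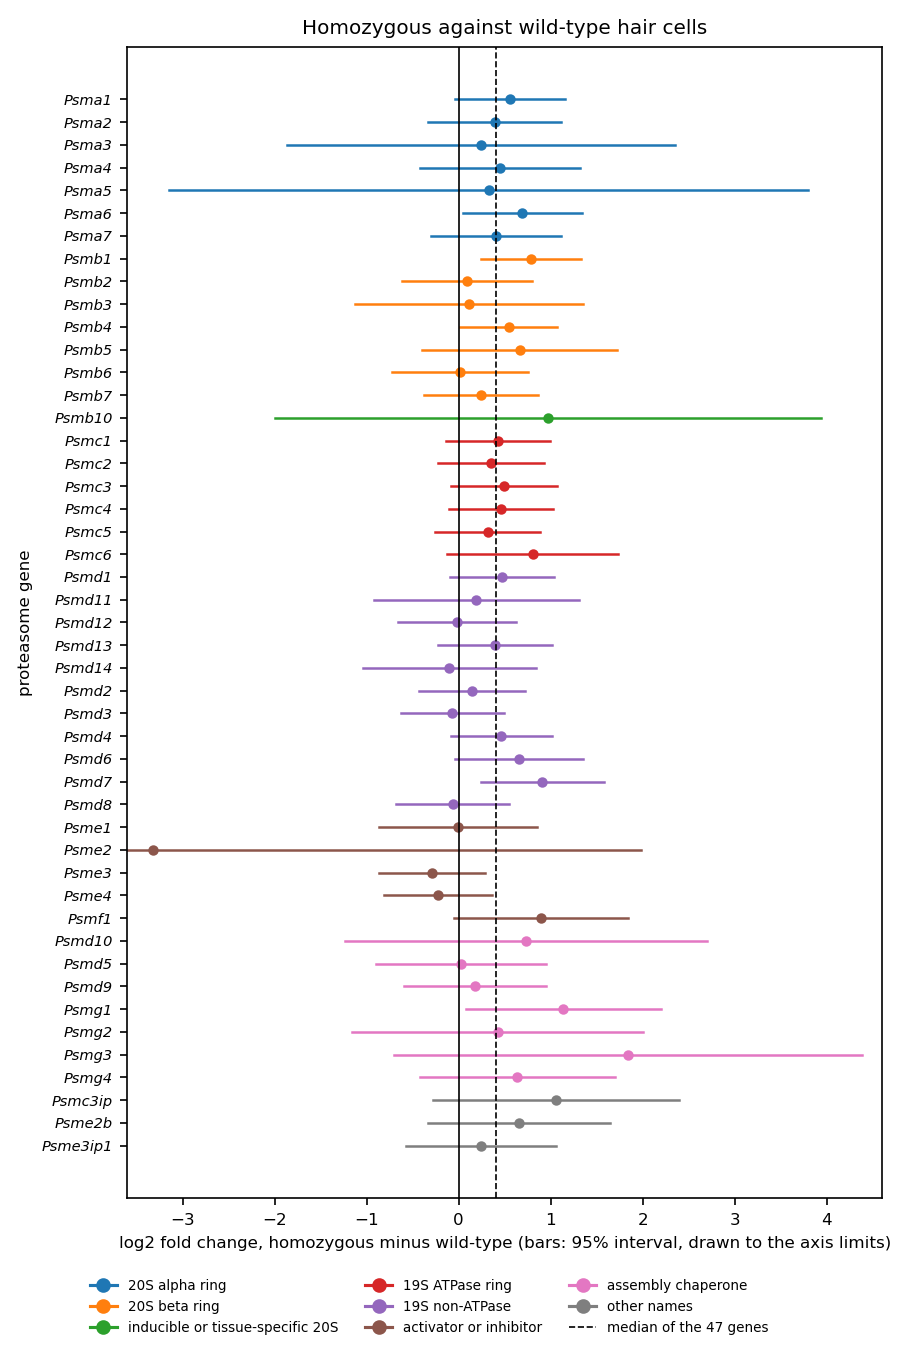
Log2 fold changes between homozygous mutant and wild-type HCs (x axis) of the 47 proteasome genes tested (y axis), coloured by role, from the edgeR fit on 3 libraries per genotype; bars are 95% intervals and the dashed line is the median of 0.40. The estimates lie above 0 for 39 genes, with the activators Psme3 and Psme4 among the 8 below 0.

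The summed level of the 47 genes followed the mouse number in the labels as well as the genotype. It was 5318, 3630 and 4398 CPM in wild-type 44, 55 and 59, 5170, 4056 and 4224 CPM in heterozygous 45, 48 and 51, and 5732, 5530 and 5762 CPM in homozygous mutant 43, 46 and 47. All 5 libraries from mice numbered 47 or lower lay above all 4 from mice numbered 48 or higher, and the 3 homozygous mutants are all among the lower numbers. Within the lower numbers, the wild-type and heterozygous libraries (5318 and 5170 CPM) lay just below the homozygous mutants (5530 to 5762 CPM). The labels and the study's sample records do not say what the number marks, the wild-type mice are described as littermates without naming litters, and genotype and number can be told apart only through wild-type 44 and heterozygous 45.

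**Figure D2:**
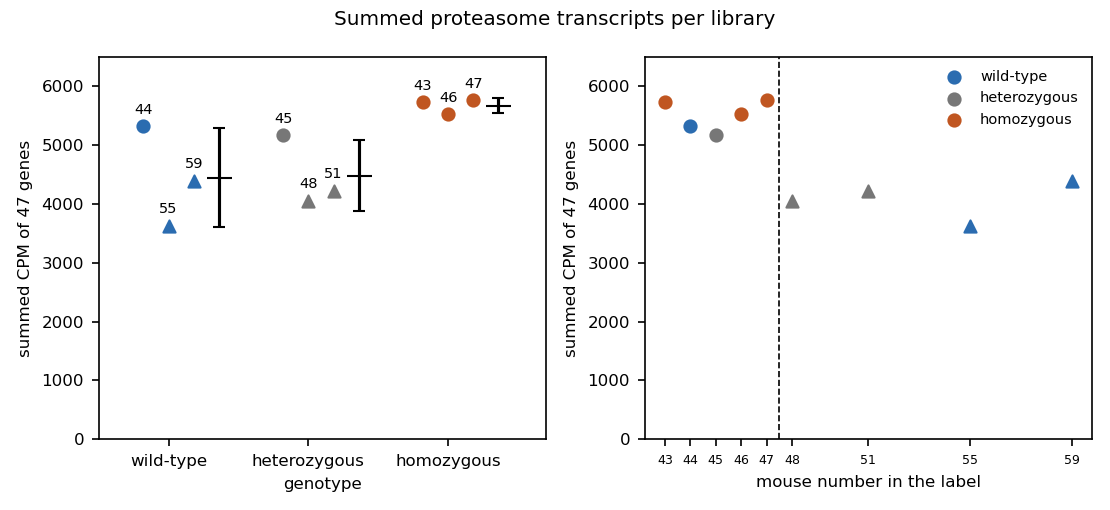
Summed CPM of the 47 proteasome genes per library (y axis), by genotype with mean and SD over 3 libraries (left) and by mouse number (right); circles are mice numbered 47 or lower, triangles 48 or higher. The circles lie between 5170 and 5762 CPM and the triangles between 3630 and 4398 CPM.

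Gene by gene, 9 of the 47 members (19.1%) had all 5 lower-numbered libraries above all 4 higher-numbered ones, against 3.61% of all genes tested, and 0 had them all below, against 3.75%. They were Psma2, Psma6, Psmb1, Psmb4, Psmb6, Psmc2, Psmc3, Psmd13 and Psmg4. The place of the split was chosen with earlier results of these data known, so these counts describe it and do not test it. With the number (47 or lower against 48 or higher) as a term in the edgeR fit, the median log2 fold change of the members between homozygous mutants and wild-type was 0.14 in place of 0.40, and 31 of 47 estimates were above 0 (51.9% of all genes). Of the 39 estimates above 0 without the term, 28 were above 0 with it and 11 turned below, while 3 of the other 8 turned above. At an unadjusted p under 0.05 in that fit, 4 members were higher and 0 lower. Of all 15184 genes tested, 427 were higher and 673 lower at that level. Among the lower-numbered libraries alone, the homozygous mutant mean exceeded wild-type 44 by a median of 0.17 on the log2 scale over the members. The value over all genes was -0.06. Heterozygous 45 exceeded wild-type 44 by a median of 0.15 over the members (-0.02 over all genes). These differences rest on 1 wild-type library and carry no test. Among the higher-numbered libraries, heterozygous minus wild-type had a median of 0.06 over the members and 0.04 over all genes.

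Other measures moved with the same split of libraries. The summed level of 15 HC markers was 15504 to 19729 CPM in the lower-numbered libraries and 20602 to 23929 CPM in the higher-numbered ones. Otof, one of the markers, was at 1755 to 3093 CPM in the lower-numbered libraries and 4315 to 6427 CPM in the higher-numbered ones. Myo7a followed the same split, while Pou4f3, Atoh1 and Gfi1 overlapped across it and Ccer2 was highest in homozygous mutant 47 and wild-type 44. By genotype the summed level was 19719 to 23929 CPM in wild-type and 17219 to 23107 CPM in heterozygous libraries. In homozygous mutant libraries it was 15504 to 19729 CPM. Of the 15 markers edgeR called 1, the actin bundling gene Espn, lower in homozygous mutants (0.915% of all genes called lower). DESeq2 called 4 lower, Espn, Gfi1, Myo7a and Otof (4.02% of all genes), and limma-voom 2, Espn and Myo7a (1.32%). Reads on Mir96 itself numbered 0 to 5 in the 5 lower-numbered libraries and 86 to 526 in the 4 higher-numbered ones; such counts, from libraries not made for small RNA, do not check the genotype. Of 12 immune cell markers 5 passed the count filter, with summed levels of 50.4 to 202 CPM in wild-type, 28.6 to 103 CPM in heterozygous and 18.4 to 35.2 CPM in homozygous mutant libraries, and Tyrobp had 0 reads in all 9. Most of that sum was 1 gene, Laptm5, with 49.0 to 199.8 CPM in wild-type and 17.7 to 27.7 CPM in homozygous mutant libraries, which was called lower by edgeR (log2 fold change -2.32, SE 0.57, adjusted p = 0.0826) and DESeq2 and not by limma-voom. Supporting cell markers (12) summed to 1926 to 3896 CPM in wild-type and 1776 to 2543 CPM in homozygous mutant libraries, with none called by edgeR, DESeq2 or limma-voom and 1 lower at an unadjusted p under 0.05 in edgeR. Mesenchyme markers summed to 906 CPM in homozygous mutant 46 and to at most 269 CPM in each of the 8 other libraries. Glia and neuron markers summed to 474 to 536 CPM in wild-type, 379 to 524 CPM in heterozygous and 418 to 594 CPM in homozygous mutant libraries, endothelial markers to at most 10.1 CPM in any library, and 5 red blood cell markers had 0 reads in all 9. The part of these differences in the proteasome values was not tested.

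**Figure D3:**
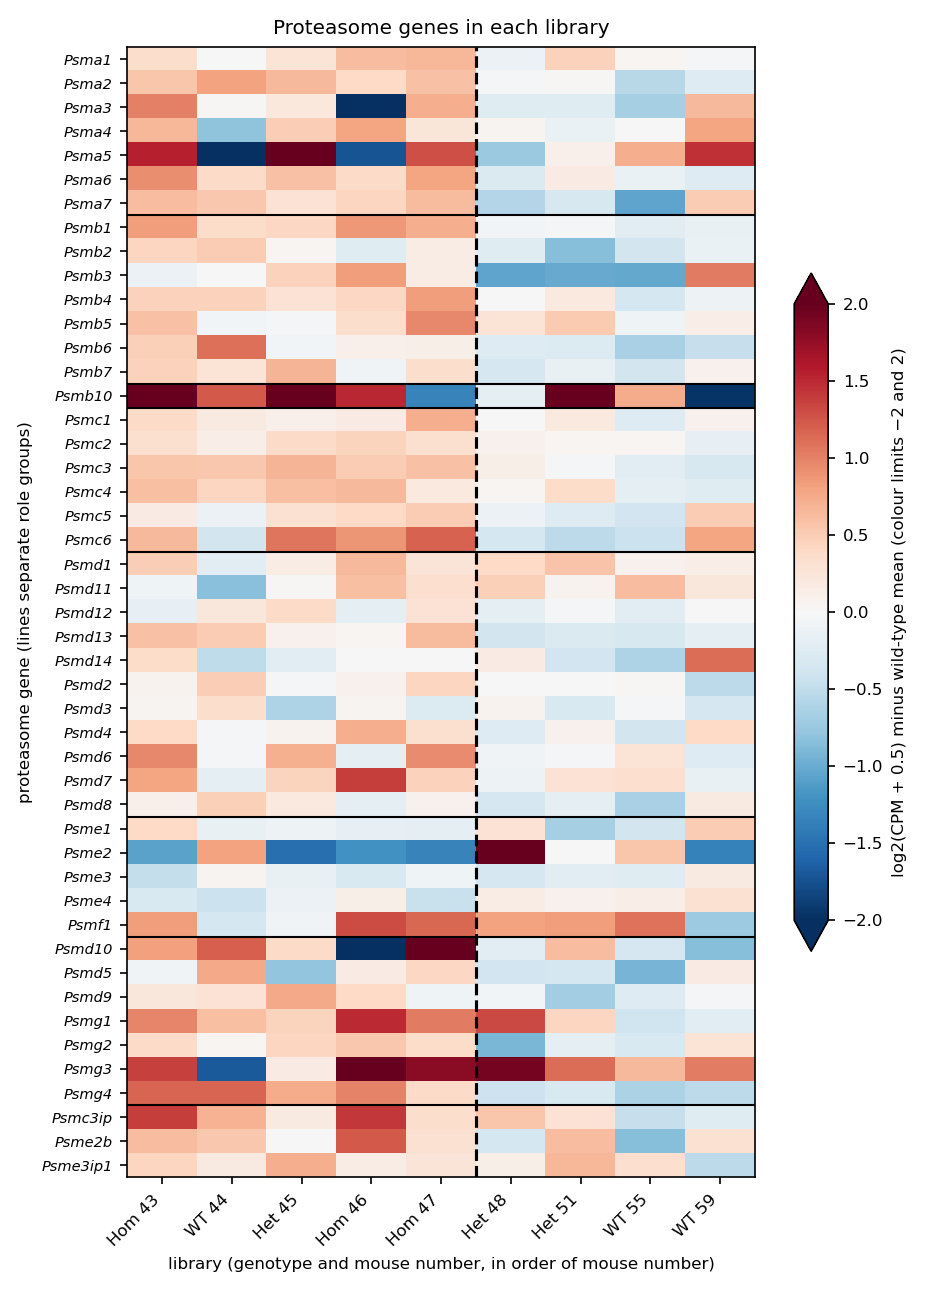
Level of each of the 47 proteasome genes (rows, grouped by role) in each library (columns, in order of mouse number), as log2(CPM + 0.5) minus the wild-type mean. The dashed line separates mice numbered 47 or lower from 48 or higher; red cells prevail left of it in the 20S and ATPase groups, and single dark cells mark libraries in which Psma3, Psma5 or Psmd10 had few reads.

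The 7 alpha ring genes all had estimates above 0 between homozygous mutant and wild-type HCs, with a median of 0.40. With the mouse number in the fit the median was 0.11, and Psma2, Psma5 and Psma7 were below 0. Psma6, a structural alpha subunit, was at 119, 83.0 and 76.1 CPM in wild-type, 136, 74.6 and 102 CPM in heterozygous and 174, 119 and 157 CPM in homozygous mutant libraries. The lowest homozygous mutant library equalled the highest wild-type library to 3 digits, and the log2 fold change was 0.69 (SE 0.31, adjusted p = 0.346). Psma1 was at 89.1, 91.3 and 87.3 CPM in wild-type, 107, 81.8 and 123 CPM in heterozygous and 114, 137 and 141 CPM in homozygous mutant libraries. Its homozygous mutant libraries lay above the wild-type libraries, which differed little among themselves, and its log2 fold change was 0.55 (SE 0.29, adjusted p = 0.417). Psma7 was the alpha gene with the smallest p between homozygous mutants and heterozygotes, a difference of 0.73 (SE 0.34, adjusted p = 0.718), while wild-type 44 and 59, at 275 and 269 CPM, lay within the range of the homozygous mutants.

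The 7 constitutive beta ring genes also all had estimates above 0, with a median of 0.25. That direction turned with the mouse number in the fit, to a median of -0.19 with Psmb2, Psmb3, Psmb6 and Psmb7 below 0. Psmb1, a beta subunit without a catalytic site of its own (chromosome 17, 15475021 to 15499751 in GRCm38), was at 209, 139 and 145 CPM in wild-type 44, 55 and 59, 215, 156 and 157 CPM in heterozygous 45, 48 and 51, and 289, 295 and 268 CPM in homozygous mutant 43, 46 and 47. All 3 homozygous mutant libraries exceeded all 6 others, and within the other genotypes the lower-numbered mice 44 and 45 were the highest. Its log2 fold change of 0.79 (SE 0.26, adjusted p = 0.196) had the smallest p of the 47 genes, and with the mouse number in the fit it was 0.47 (adjusted p = 0.736). Psmb4, a further structural subunit, was at 395, 224 and 266 CPM in wild-type, 352, 289 and 329 CPM in heterozygous and 397, 383 and 509.9 CPM in homozygous mutant libraries. It had the second smallest p of the ring, with a log2 fold change of 0.54 (SE 0.26, adjusted p = 0.366), and heterozygous 48 and 51 lay below both 44 and 45.

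The 3 catalytic beta subunits differed among themselves. Psmb5, which carries the chymotrypsin-like activity, was at 21.2, 20.8 and 24.2 CPM in wild-type, 21.8, 26.7 and 32.0 CPM in heterozygous and 33.4, 28.4 and 43.1 CPM in homozygous mutant libraries. All its homozygous mutant libraries lay above the wild-type libraries, and with these low levels the log2 fold change was 0.66 (SE 0.51, adjusted p = 0.637). Psmb6, with the caspase-like activity, was at 418, 124 and 141 CPM in wild-type, 187, 163 and 161 CPM in heterozygous and 270.4, 207 and 211 CPM in homozygous mutant libraries. Wild-type 44 stood above every other library, and the estimate of 0.01 (SE 0.35, adjusted p = 0.995) fell below 0, to -0.28, without wild-type 55, and to -0.46 with the mouse number in the fit. Psmb7, with the trypsin-like activity, was at 195, 125 and 169.7 CPM in wild-type, 256, 128 and 145 CPM in heterozygous and 222, 153 and 206 CPM in homozygous mutant libraries. Its groups overlapped, and the log2 fold change of 0.25 (SE 0.30, adjusted p = 0.795) also turned negative, to -0.19, with the mouse number in the fit.

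The inducible subunits, which replace the catalytic ones in the immunoproteasome of immune and interferon-exposed cells, had few reads or none. Psmb8 and Psmb9 had 0 reads in all 9 libraries, of 245203038 reads in all, which allows a level of up to 0.0122 CPM over the pooled libraries (3 reads) and covers counting error only. Psma8, the alpha subunit of germ cells, also had 0 reads, and Psmb11, the beta subunit of thymic epithelium, had 1 read, in heterozygous 51. Psmb10, the inducible counterpart of Psmb7, was the member of this group that passed the count filter, at 6.55, 4.54 and 0.275 CPM in wild-type, 20.1, 2.16 and 11.5 CPM in heterozygous and 13.5, 8.06 and 0.699 CPM in homozygous mutant libraries. The libraries of each genotype spanned a wide range, and the log2 fold change was 0.97 (SE 1.43, adjusted p = 0.844). These 5 genes together made up 0.275 to 20.1 CPM per library.

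In the 19S particle, the 6 ATPase genes all had estimates above 0, from 0.31 to 0.80, with a median of 0.45, and 0 of them reached an unadjusted p under 0.05. All 6 were also above 0 with the mouse number in the fit, with a median of 0.20. Psmc6 had the smallest p, at 36.4, 35.1 and 82.5 CPM in wild-type, 99.7, 36.7 and 32.9 CPM in heterozygous and 74.2, 87.2 and 107 CPM in homozygous mutant libraries. Wild-type 59 lay inside the homozygous mutant range and heterozygous 48 and 51 well below it, for a log2 fold change of 0.80 (SE 0.45, adjusted p = 0.453). Psmc2, the ATPase gene without overlap between homozygous mutant and wild-type libraries, was at 110.1, 104 and 89.6 CPM in wild-type, 132, 107 and 104 CPM in heterozygous and 126, 137 and 125 CPM in homozygous mutant libraries. Its spread within groups was small and so was its difference, 0.35 (SE 0.28, adjusted p = 0.646). Heterozygous 45 lay inside the homozygous mutant range.

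The 11 non-ATPase subunits of the 19S particle, which include the ubiquitin receptors and the deubiquitinase, were divided, with 7 estimates above 0 and 4 below and a median of 0.19 (0.32, again with 7 above 0, with the mouse number in the fit). Psmd7, the partner of the deubiquitinase subunit (chromosome 8, 107580381 to 107588464), was at 65.1, 94.7 and 67.8 CPM in wild-type 44, 55 and 59, 102, 69.4 and 91.8 CPM in heterozygous 45, 48 and 51, and 129.9, 195 and 103 CPM in homozygous mutant 43, 46 and 47. The homozygous mutants lay above all 6 other libraries, with 46 highest, and the log2 fold change was 0.91 (SE 0.32, adjusted p = 0.233), or 0.89 with the mouse number in the fit. Psmd1, a large scaffold subunit, was at 96.9, 119 and 123 CPM in wild-type, 124, 148 and 166 CPM in heterozygous and 158, 176 and 135 CPM in homozygous mutant libraries. Both mutant genotypes lay above wild-type in every library, the 1 member of the 47 for which all heterozygous libraries exceeded all wild-type libraries (5.41% of all genes), with a log2 fold change of 0.47 (SE 0.27, adjusted p = 0.475) for homozygous mutants. Psmd3 had the smallest p of the 4 below 0, at 272, 211 and 170.1 CPM in wild-type, 139.6, 225 and 173 CPM in heterozygous and 223, 221 and 177 CPM in homozygous mutant libraries. Its groups overlapped throughout, and the estimate of -0.07 (SE 0.27, adjusted p = 0.953) changed sign without wild-type 44 (0.12) or homozygous mutant 47 (0.03) and with scaling to library totals (0.01). Psmd14, the deubiquitinase itself, was at 105 CPM in wild-type 59 and between 31.0 and 62.0 CPM in the 8 other libraries.

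The activators and the inhibitor had 1 of 5 estimates above 0, with a median of -0.22. This too turned with the mouse number in the fit, to a median of 0.09 with Psme1, Psme4 and Psmf1 above 0. Psme3, which forms the nuclear activator ring, had the highest level of them per kilobase, with 130.0 ± 19.4 CPM in wild-type and 106 ± 14.1 CPM in homozygous mutant libraries (SD, n = 3), and Psme4, the large activator of acetylated histone degradation, had 159 ± 39.8 CPM and 137 ± 29.3 CPM. Neither was called, with log2 fold changes of -0.29 (SE 0.28, adjusted p = 0.728) and -0.22 (SE 0.28, adjusted p = 0.804). Psmf1, the inhibitor of the 20S core, was the 1 above 0, at 26.9, 73.7 and 20.6 CPM in wild-type, 32.7, 60.7 and 61.6 CPM in heterozygous and 62.2, 85.9 and 77.2 CPM in homozygous mutant libraries. Wild-type 55 lay inside the homozygous mutant range, and the log2 fold change was 0.89 (SE 0.46, adjusted p = 0.405), or 1.51 (SE 0.54, adjusted p = 0.543) with the mouse number in the fit. Psme2 was at 6.99 CPM or less in every library, and its log2 fold change of -3.33 (SE 2.56, adjusted p = 0.637) rests on few reads; its value with its near-identical copy is given below.

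The 7 assembly chaperones all had estimates above 0, with a median of 0.64. With the mouse number in the fit the median was 0.06, and Psmd5, Psmd9 and Psmg4 were below 0. Psmg1, which pairs with Psmg2 to build the alpha ring, was at 28.5, 14.04 and 16.0 CPM in wild-type, 25.6, 47.1 and 25.1 CPM in heterozygous and 37.2, 53.2 and 38.5 CPM in homozygous mutant libraries. The homozygous mutants lay above the wild-type libraries, heterozygous 48 lay among them, and the log2 fold change was 1.14 (SE 0.51, adjusted p = 0.345). Psmg2 was at 14.7, 11.4 and 17.3 CPM in wild-type, 19.3, 7.35 and 12.5 CPM in heterozygous and 18.7, 20.9 and 18.5 CPM in homozygous mutant libraries. Its homozygous mutant libraries were above the wild-type ones by a margin smaller than the spread of the wild-type libraries, for a log2 fold change of 0.42 (SE 0.76, adjusted p = 0.878). Psmg3, a partner of Psmg4, was at 0.595, 4.97 and 6.65 CPM in wild-type, 3.43, 12.7 and 7.06 CPM in heterozygous and 8.48, 23.5 and 11.7 CPM in homozygous mutant libraries. Its wild-type and homozygous mutant libraries did not overlap, and the log2 fold change of 1.84 (SE 1.23, adjusted p = 0.568) was estimated with wild-type 44 as the lowest of the 9 libraries, and was 3.87 (SE 1.81, adjusted p = 0.679) with the mouse number in the fit. Of the 19S chaperones Psmd5, Psmd9 and Psmd10, the last ranged from 0.994 CPM in homozygous mutant 46 to 77.1 CPM in homozygous mutant 47.

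Among the 3 genes that share the name pattern without being subunits of the standard particle, Psmc3ip, a meiotic recombination factor, had 14.9 ± 6.99 CPM in wild-type and 31.1 ± 11.3 CPM in homozygous mutant libraries (SD, n = 3) and a log2 fold change of 1.06 (SE 0.64, adjusted p = 0.512). Psme3ip1, which binds the Psme3 activator, had a log2 fold change of 0.24 (SE 0.39, adjusted p = 0.857), and Psme2b, an intron-poor relative of Psme2, one of 0.66 (SE 0.48, adjusted p = 0.611). None of these 3 genes was called.

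Levels could be compared between genes per kilobase of merged exon. In wild-type HCs the beta ring ran from Psmb4 at 151 ± 45.7 to Psmb3 at 14.6 ± 10.003 CPM per kb, and the ATPases from Psmc5 at 141 ± 46.7 to Psmc6 at 14.7 ± 7.72 CPM per kb (mean ± SD, n = 3 here and in the rest of this paragraph). The alpha ring ran from Psma6 at 75.2 ± 18.7 to Psma5 at 3.24 ± 2.98 CPM per kb, although its products are present once per ring. The non-ATPase genes ran from Psmd4, a ubiquitin receptor, at 69.8 ± 18.8 to Psmd11 at 4.14 ± 1.91 CPM per kb, and the activators from Psme3 at 44.1 ± 6.58 to Psme2 at 0.682 ± 0.574 CPM per kb. The chaperones ran from Psmg4 at 68.4 ± 52.7 to Psmg3 at 1.41 ± 1.08 CPM per kb. Neighbours in these orders mostly lay within each other's SD, as for Psma6 and Psma7 (68.7 ± 34.2 CPM per kb) or Psmb4 and Psmb6 (122 ± 88.3 CPM per kb), while the ends of each order lay farther apart than the sum of their SDs. Merged exons include untranslated parts, while the study's methods describe counting over coding regions; per kilobase of coding sequence Psma7 led the alpha ring, Psmd8 the non-ATPases, and Psmb5 was lowest in the beta ring.

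**Figure D4:**
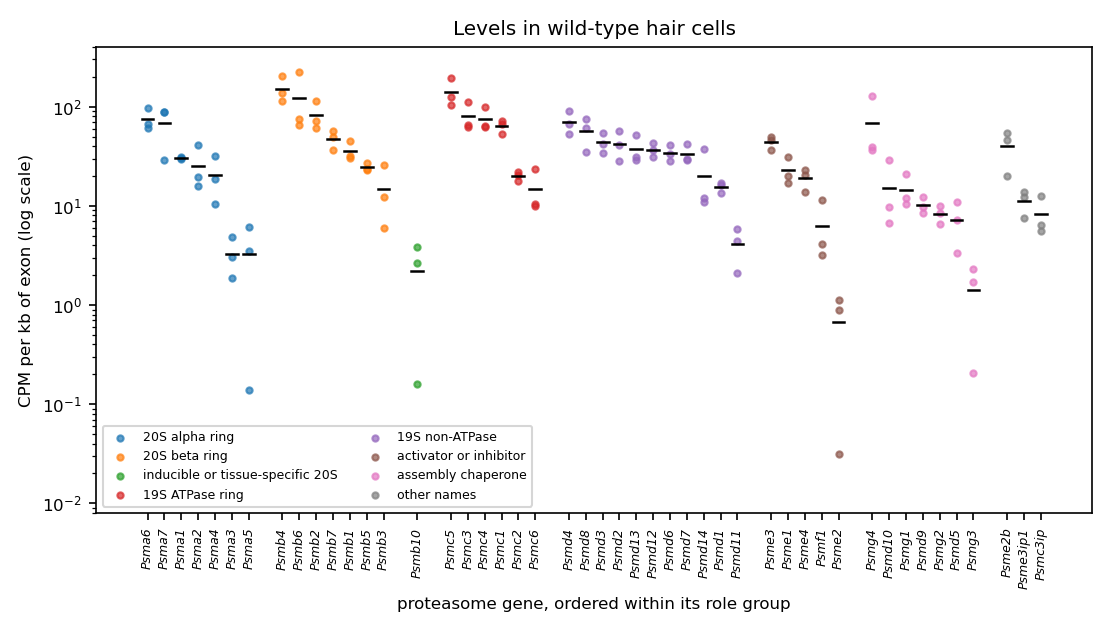
Levels of the 47 proteasome genes in wild-type HCs in CPM per kilobase of merged exon (y axis, log scale), ordered within each role group (x axis, colours); points are the 3 libraries and bars their means. Psma3, Psma5 and Psme2 lie below the other members of their groups.

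Several genes low in these orders have processed copies elsewhere in the genome. Psma5 had 1330 reads over the 9 libraries, while its annotated copies Psma5-ps (chromosome 10, 85313488 to 85314439) and Gm12989 (chromosome 4, 135715868 to 135716598) had 13043 and 9069 reads. Along the 723 coding bases of Psma5, Psma5-ps was 98.9% identical and Gm12989 was 99.0% identical over the 720 bases aligned. Coding bases 61 to 120 are shown, with the differing base in capitals. In steps of 60 bases, they are the first stretch in which a copy differs by 1 to 3 bases and none by more. The small number of differences in the stretch is therefore set by that choice.
Psma5: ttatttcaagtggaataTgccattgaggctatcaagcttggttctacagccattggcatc
Psma5-ps: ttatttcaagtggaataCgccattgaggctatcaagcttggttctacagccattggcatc
Gm12989: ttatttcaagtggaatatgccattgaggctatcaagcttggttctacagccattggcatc
The difference is T18C in Psma5-ps, counted from the 5′ end of the stretch, which lies on its plus strand at chr10:85313629-85313688 of GRCm38. Gm12989 matches it in full at chr4:135716482-135716541 on the minus strand. Of the 649 possible 75-base stretches of the Psma5 coding sequence, 226 (34.8%) occurred without change in Psma5-ps and 267 (41.1%) in Gm12989, and a read from such a stretch matches both places equally well.

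The same held for Psme2, an interferon-inducible activator subunit, with 363 reads against 9538 on Psme2b. Their coding sequences were 99.3% identical over 717 bases, and 382 of 643 75-base stretches (59.4%) were shared. Coding bases 301 to 360, chosen by the same rule, differed by C12T, in capitals, with Psme2b at chr11:48945759-48945818 on the minus strand.
Psme2: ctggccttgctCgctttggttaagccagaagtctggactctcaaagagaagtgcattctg
Psme2b: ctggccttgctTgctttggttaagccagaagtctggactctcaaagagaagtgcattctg
Psma3 had 3257 reads against 17036 on its copy Gm13835, and 588 of the 691 75-base stretches (85.1%) of its coding sequence were identical in that copy. Gm13835 is on chromosome 6 from 31142663 down to 31141979, 0.972 Mb from Mir96. The split of reads between these 3 genes and their copies is uncertain. Of the other members with an annotated copy, Psmc1, Psmd2 and Psma4 had the highest counts on the copy. These were 17422 reads on Gm9575 (34741 on Psmc1), 12867 on Gm5422 (42963 on Psmd2) and 11380 on Gm6542 (13040 on Psma4).

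**Figure D5:**
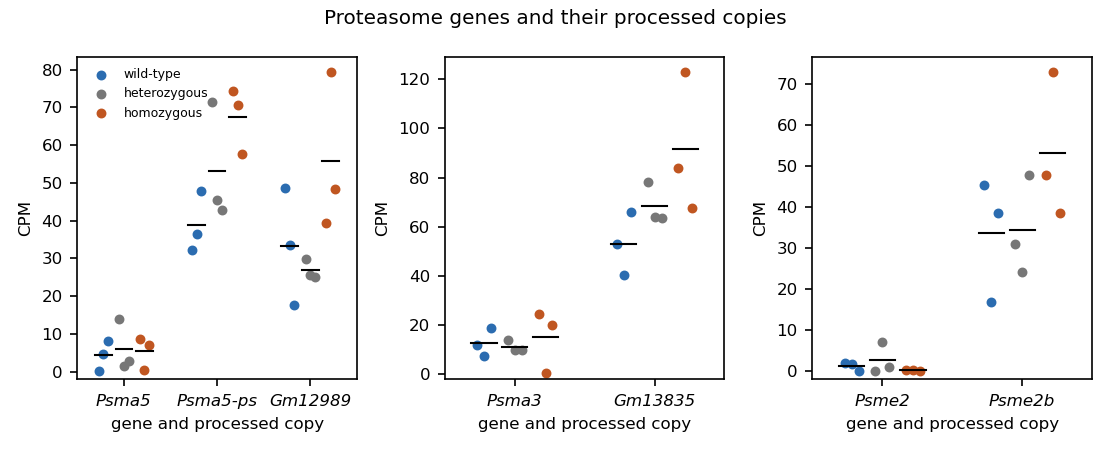
CPM (y axes) of Psma5, Psma3 and Psme2 and of their processed copies (x axes) in each library, coloured by genotype, with the mean of each genotype as a bar. The copies hold most of the reads in each of the 3 sets.

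Reads of each member and of its copies were also summed, a choice made after these counts were seen. Psma5 with its copies was at 79.9, 74.5 and 72.7 CPM in wild-type, 115, 72.4 and 71.5 CPM in heterozygous and 123, 149.7 and 114 CPM in homozygous mutant libraries. The homozygous mutants and heterozygous 45 stood above the rest, and the log2 fold change for homozygous mutants was 0.77 (SE 0.31, adjusted p = 0.288), against 0.33 for Psma5 alone. Psma3 with its copies was at 71.2 ± 17.6 CPM in wild-type and 117 ± 30.2 CPM in homozygous mutant libraries (SD, n = 3), with a log2 fold change of 0.71 (SE 0.33, adjusted p = 0.356). That sum includes Gm13835, near Mir96, where the genotypes can differ by strain as well. For Psme2 the sum turned the estimate from -3.33 to 0.63 (SE 0.46, adjusted p = 0.619). The median over all members was then 0.45.

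Between heterozygous and wild-type HCs, 30 of 47 members had log2 fold changes above 0 (47.4% of all genes), with a median of 0.09 over the members and -0.03 over all genes. By edgeR 0 members were called (0% of all genes) and 0 were higher at an unadjusted p under 0.05 (1.79% of all genes), and both DESeq2 (0.296% of all genes) and limma-voom (0.00659%) called 0. The homozygous mutants also lay above the heterozygotes, with 40 of 47 estimates above 0 (49.9% of all genes) and a median of 0.38 against 0 over all genes. With the mouse number in the fit, 31 of 47 were above 0 (51.5% of all genes), with a median of 0.21, and the estimates of Psmb1 and Psma7 were 0.37 and 0.32 in place of 0.69 and 0.73. There edgeR called 0 members (0.00659% of all genes) and had 3 higher at an unadjusted p under 0.05 (2.9% of all genes), Psmb1, Psmd7 and Psma7, and DESeq2 (0.968% of all genes) and limma-voom (0.896%) called 0. In 9 members all homozygous mutant libraries exceeded all heterozygous ones, against 6.95% of all genes. The comparisons share libraries and are not independent of each other.

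Along the number of Dmdo alleles, the median change per allele over the members was 0.20 (-0.01 over all genes) and 39 of 47 were above 0 (49.1% of all genes). By edgeR 0 members passed the false discovery rate of 10% (1.78% of all genes), and 5 were higher at an unadjusted p under 0.05 (5.16% of all genes). DESeq2 called 2 members, Psmb1 and Psmd7 (6.84% of all genes), and limma-voom called 3, Psma7, Psmb1 and Psmb4 (5.04% of all genes). Changes per allele in the edgeR fit with the mouse number were 0.22 for Psmb1, 0.42 for Psmd7, 0.14 for Psmb4 and -0.06 for Psma7. Without wild-type 44, the lower-numbered wild-type mouse, edgeR called Psmb1 and Psmb4 between homozygous mutants and wild-type (4.87% of all genes called in that fit), and 5 members along the number of alleles (Psmb1, Psmb4, Psmb6, Psmc3 and Psmg4, against 6.12% of all genes). All wild-type libraries left in that fit have higher mouse numbers than every homozygous mutant, so genotype and number cannot be told apart between these 2 genotypes there.

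Proteasome genes are known to be induced together through antioxidant response elements, promoter sites bound by Nfe2l1 and its relative Nfe2l2. RefSeq promoters (GRCm38.p6, 250 bases before to 50 after the annotated start) were at hand for 43 of the 51 members, and not for Psma8, Psmb1, Psmb2, Psmb7, Psmc3, Psmd3, Psmd7 and Psmg2. The core of the element, TGACNNNGC on either strand, was found in 6 of the 43 (13.95%), against 17.2% of 10805 genes tested that had a promoter entry. The 43 include Psmb8, Psmb9 and Psmb11, which were under the count filter, while the 10805 all passed it. The promoter shares here and below are therefore from sets chosen differently. Each match is shown in capitals with up to 8 bases on either side, because these are the members whose promoters hold the known letters.
Psmb5, chr14:54618026-54618050, minus strand: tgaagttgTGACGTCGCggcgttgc
Psmb6, chr11:70525340-70525364, plus strand: aaagagagTGACGGAGCgctttacg
Psmc6, chr14:45329589-45329613, plus strand: agccagtaGCTAAGTCAggcattgc
Psmd9, chr5:123228151-123228175, plus strand: ctagccggTGACCCCGCccacttcc
Psmd12, chr11:107479278-107479297, plus strand: tctGCTGTGTCAcatttgcc
Psme4, chr11:30771760-30771784, plus strand: ctgcggctGCAGCGTCAccagaaga
In homozygous mutant against wild-type HCs the log2 fold changes of these 6 were 0.66 for Psmb5, 0.01 for Psmb6, 0.80 for Psmc6, 0.18 for Psmd9, -0.02 for Psmd12 and -0.22 for Psme4. They lay on both sides of 0, and none was called. The promoter of Psmb5 (chr14:54617946-54618245, minus strand), which like Psmb6 is a catalytic subunit with a match, is shown whole. The match, in capitals, begins 47 bases before the annotated start.
Psmb5 promoter: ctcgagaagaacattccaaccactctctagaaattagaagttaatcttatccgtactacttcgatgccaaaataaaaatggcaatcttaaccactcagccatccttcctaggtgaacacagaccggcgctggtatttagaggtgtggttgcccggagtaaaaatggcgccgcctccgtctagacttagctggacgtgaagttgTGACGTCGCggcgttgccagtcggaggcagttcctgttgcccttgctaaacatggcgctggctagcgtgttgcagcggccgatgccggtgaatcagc
The longer form TGACTCAGC was found in 0 of 43 members and 0.481% of the 10805 genes. The box CCAAT was found in 16 members (37.2%, against 42.0%) and GGGCGG in 24 (55.8%, against 68.6%), both searched on either strand.

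The 4 members with a 3′ UTR match to the Dmdo seed are the ones that the mutant microRNA could pair with by these 7 bases. The matches are in capitals with 10 bases on either side, on GRCm38.
Psmd3, chr11:98695729-98695755, plus strand: gggatgctggGAGCCAAccgtcccctt
Psmd12, chr11:107503709-107503735, plus strand: tgtagcctggGAGCCAAgaaaagagac
Psme4, chr11:30880248-30880274, plus strand: tgctgagtaaGAGCCAAttgctgaaaa
Psme3ip1, chr8:94575098-94575124, minus strand: acaaggctgtGAGCCAAcgacagccct
Their log2 fold changes between homozygous mutant and wild-type HCs were -0.07, -0.02, -0.22 and 0.24, with SEs of 0.27, 0.31, 0.28 and 0.39. Each was smaller than its standard error, so that no difference was detectable for these genes. Psme4 was at 115, 171 and 192 CPM in wild-type, 144, 173 and 165 CPM in heterozygous and 126, 169.7 and 114 CPM in homozygous mutant libraries. The 3 groups of that gene overlapped.

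Genes that control, feed or assist the proteasome were read from 6 lists, and 0 of their genes were called by edgeR, DESeq2 or limma-voom between homozygous mutant and wild-type HCs (1.15%, 6.36% and 2.11% of all genes). At an unadjusted p under 0.05, edgeR had 1 gene lower in each of 2 lists and 1 higher in another, named below. Of 8 genes of transcriptional control, 2 had estimates above 0, with a median of -0.21. Ngly1 had the smaller p of these 2, with a log2 fold change of 0.41 (SE 0.64, adjusted p = 0.853). Nfe2l1, the factor that raises proteasome genes when activity falls short, was at 291, 400.1 and 401 CPM in wild-type, 276, 369 and 300.2 CPM in heterozygous and 271, 337 and 299 CPM in homozygous mutant libraries. Its groups overlapped, and the log2 fold change was -0.27 (SE 0.24, adjusted p = 0.702). Mafg, a small Maf partner of these factors, had 141 ± 25.9 CPM in wild-type and 79.4 ± 37.9 CPM in homozygous mutant libraries (SD, n = 3) and a log2 fold change of -0.82 (SE 0.35, adjusted p = 0.314), the 1 gene of the list at an unadjusted p under 0.05.

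Of 10 other particle and assembly genes, 5 had estimates above 0, with a median of 0.02, and 0 reached an unadjusted p under 0.05 in edgeR and 1 in DESeq2. Sem1, a small 19S subunit, had a log2 fold change of 0.66 (SE 0.42, adjusted p = 0.55), Adrm1, a ubiquitin receptor of the particle, -1.11 (SE 0.62, adjusted p = 0.459), and Akirin2, which carries proteasomes into the nucleus, -0.88 (SE 0.43, adjusted p = 0.383). Among the wild-type libraries Sem1 was highest in the lower-numbered mouse, with 225, 50.9 and 91.8 CPM in wild-type 44, 55 and 59. Homozygous mutant 43, 46 and 47 had 245, 131 and 205 CPM of Sem1. Akirin2 was lower in all 3 homozygous mutant libraries (26.8, 30.5 and 17.4 CPM) than in the wild-type ones (48.3, 42.8 and 46.5 CPM). Among 10 substrate shuttles and unfoldase genes the median was 0.01, with Ubqln4, a ubiquitin shuttle, at -0.92 (SE 0.34, adjusted p = 0.258) and Zfand2a at 0.66 (SE 0.44, adjusted p = 0.568). Among 6 genes of ubiquitin and its activating enzymes the median was -0.15, with Rps27a, a ubiquitin and ribosomal fusion gene, at 1.67 (SE 1.12, adjusted p = 0.571) and Uba6 at -1.07 (SE 0.98, adjusted p = 0.709).

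The 9 genes of the COP9 signalosome, a relative of the 19S lid, had a median of 0.24, with 6 estimates above 0. Cops7a had a log2 fold change of 0.80 (SE 0.38, adjusted p = 0.372) and Gps1 one of -1.38 (SE 0.76, adjusted p = 0.451). Of 14 interferon and antigen presentation genes 10 passed the count filter, with a median of 1.23 over mostly low levels; Nlrc5 and Ifit3 had 0 reads in all libraries. B2m, the light chain of MHC class I, had 8.92 ± 1.51 CPM in wild-type and 26.7 ± 12.5 CPM in homozygous mutant libraries (SD, n = 3) and a log2 fold change of 1.58 (SE 0.79, adjusted p = 0.397), and Tapbp, which loads peptides, one of -0.55 (SE 0.42, adjusted p = 0.638). The summed level of the list was 145 to 172 CPM in wild-type and 117 to 198 CPM in homozygous mutant libraries, with overlap.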

How the data were processed

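Per the labels and the study's methods, the authors aligned 75-base read pairs to GRCm38 with HISAT2 2.0.4, counted reads per gene with HTSeq, and deposited raw counts for 43808 Ensembl genes per library, without normalization. The methods describe the counted reads as those over coding regions. The kit was directional, but whether strand entered the counting, and how reads that match several places were treated, was not stated; overlapping antisense genes may therefore share reads. A wild-type and a homozygous mutant sample had lower RNA integrity, and the methods do not name them. Libraries were assigned to genotypes by their labels, 1 mouse each, and no 2 libraries held identical counts.

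The counts were tested with edgeR 4.0.16 (robust quasi-likelihood, TMM, all 9 libraries), for genes with at least 20 reads in 2 or more libraries of a genotype. DESeq2 1.42.0, limma-voom (limma 3.58.1) and other filters, scalings, thresholds and sample sets were the alternatives. The allele trend was called on the adjusted p alone. An exact permutation test of 3 libraries against 3 has 0.1 as its smallest two-sided p, and none was run on single genes. R 4.3.3 and Python 3.11.15 were used, and the tests were tried on simulated counts.

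Members, roles, pathway and marker lists and the split by mouse number were chosen with earlier results of these data known. Named genes were the subunits Psmb1, Psmb5, Psmb6 and Psmb7, the inducible or tissue-specific subunits, the member of smallest p in each direction per role, members whose homozygous mutant and wild-type libraries did not overlap, the ends of each order of levels, members under the count filter, and for each pathway list the gene of smallest p in each direction; other genes were named after their values were seen. Coding sequences and copies are from GENCODE vM21 (GRCm38), aligned with Biopython 1.88, and microRNA and promoters from RefSeq (GRCm38.p6).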

Additional observations from a re-analysis of the deposited data

Results flagged for a closer look

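Signal above the wild-type libraries lay on 3 processed copies that the member list leaves out, and no test singles them out. Gm13835, the copy of Psma3, had 53.1 ± 12.6 CPM in wild-type and 91.5 ± 28.4 CPM in homozygous mutant libraries (SD, n = 3). Psma5-ps had 38.8 ± 8.18 and 67.5 ± 8.72 CPM, and Gm4950, the copy of Psmb3, had 7.94 ± 5.30 and 19.05 ± 5.20 CPM. These 3 are the listed copies in which all homozygous mutant libraries exceeded all wild-type libraries, so that separation restates the choice. It was seen in 7.61% of all genes tested. Heterozygous 45, a lower-numbered mouse, lay inside the homozygous mutant range for Psma5-ps (71.3 CPM) and Gm13835 (78.1 CPM) and below it for Gm4950 (9.61 CPM). Wild-type 44 lay below that range for each. Of the 3 copies, edgeR called none (adjusted p = 0.346, 0.381 and 0.640). Gm13835 lies 0.972 Mb from Mir96, where the genotypes can differ by strain as well as by the Dmdo base.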

How the results depend on the processing

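The median log2 fold change of the members between homozygous mutant and wild-type HCs stayed above 0 under every alternative run. It was 0.54 with limma-voom, 0.49 with library totals (which moved the median of all genes to 0.07), 0.48 without both wild-type 59 and homozygous mutant 46, and 0.14 with the mouse number as a term, where the median of the beta ring (-0.19) and of the activators and inhibitor (0.09) changed sign. Leaving out 1 library at a time gave 0.34 (without wild-type 55) to 0.47 (without wild-type 44). The count of members called was 0 by edgeR. It was 1 by DESeq2 and 0 to 2 with 1 library left out, the 2 without wild-type 44, in fits that called 0.145% to 4.87% of all genes. Along the number of alleles 0 were called by edgeR, 2 by DESeq2, 3 by limma-voom, and 0 to 5 with 1 library left out, the 5 without wild-type 44, in fits that called 0.257% to 6.12% of all genes. The cause of these moves was not tested, and genes of few reads, such as Psma5 and Psme2, have intervals too wide to place. No paired analysis was possible because the mouse numbers in the labels are shared by no 2 libraries.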
